A study of Drosophila melanogaster with 4 samples.

Results

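Arm 3L is the left arm of chromosome 3, a large autosome of *Drosophila melanogaster*. Its regions of enrichment for H3K23ac, a lysine acetylation on the tail of histone H3, were taken from ChIP-seq of embryos. All regions of 3L that end at or before base 22543557 (FlyBase release 5) were used, which leaves out the last 2 Mb, toward the centromere. These were 2005 of the 10281 regions of replicate 1, 1440 of the 7422 of replicate 2 and 3619 of the 18064 of a combined list. The members were chosen by position, so neither their widths nor their scores entered the choice.

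The embryos were wild-type Oregon-R (Oregon-R-modENCODE), a standard laboratory strain, aged 14 to 16 hr, with no treatment named. The 4 samples were 2 H3K23ac ChIP replicates and 2 input libraries, each the input for 1 of the replicate lists, and the inputs have no region list of their own here. Whole embryos hold many cell types, so a mark carried by few cells and a weak mark carried by all cannot be told apart. No label says that the replicates came from separate embryo collections, and the spread between them may be technical. The number of reads behind each list is unknown. With 2 samples of 1 condition no test between groups exists. No p-value is given, and every correlation below is a description across neighbouring windows or regions of the same 2 libraries.

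Acetylation of the H3 tail neutralises the charge of the lysine and loosens the hold of histones on DNA. It is laid down by acetyltransferases and removed by deacetylases, and acetylated H3 marks active genes, above all near their promoters. In *Drosophila*, acetylation at this lysine has been linked to genes induced by the moulting hormone ecdysone. The arm runs from the telomere (distal, low coordinates) toward the centromere (proximal, high coordinates), near which repeat-rich heterochromatin lies.

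On 3L, H3K23ac regions covered 19.7% of the sequence in replicate 1 and 14.2% in replicate 2, a mean of 16.9% ± 3.90 (SD, n = 2), and 41.1% in the combined list. The replicate lists held 88.9 and 63.9 regions per Mb, and the combined list 160.5. Median widths were alike: the median region of replicate 1 was 1817 bp wide, that of replicate 2 1762 bp and that of the combined list 1795 bp. The middle 50% of regions spanned 1489 to 2354 bp in replicate 1 and 1473 to 2369 bp in replicate 2. In the combined list widths were more spread, with the middle 50% from 1305 to 2841 bp. Each region carries 1 score given by the authors, on a log2 scale whose reference is not stated. Its median was 0.65 in both replicates, against 0.44 among combined regions. On the arms most like it, treated in the same way, coverage was 16.2% ± 3.44 on 2L and 18.2% ± 4.33 on 3R (SD, n = 2). Coverage of 3L was 1.06 times that of 2L in replicate 1 and 1.03 times in replicate 2, and 0.926 and 0.936 times that of 3R. All arms were read from the same libraries, and the differences between arms were not tested.

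Along the arm the covered share varied widely, with a dense distal block, a dense proximal end and an almost empty interval between 5 and 5.5 Mb. Over 90 windows of 250 kb, coverage ranged from 0.609% to 64.7% in replicate 1 and from 0% to 56.5% in replicate 2, with medians of 17.2% and 10.8%. The 9 windows with the highest mean coverage held 25.0% of all covered bases in the windows. This share was 19.4% for the corresponding 8 windows of 2L and 19.2% for 10 windows of 3R, given without a test. Replicate 1 covered more than replicate 2 in 84 of the 90 windows. The 6 others included 0.25 to 0.5 Mb, with 38.7% in replicate 1 and 40.8% in replicate 2, and 13 to 13.25 Mb, with 34.9% and 35.7%.

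**Figure D1:**
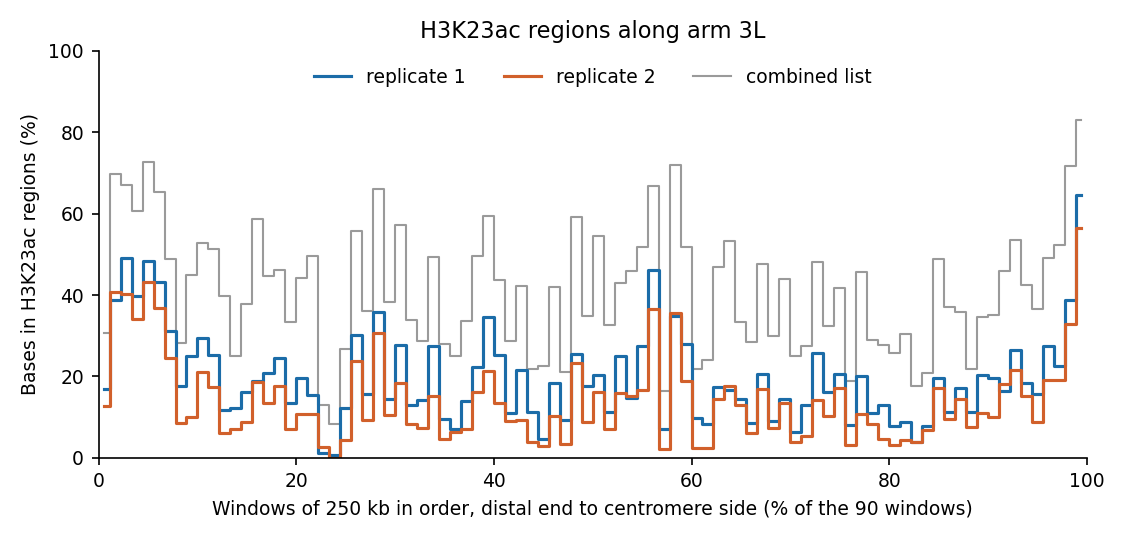
Share of bases in H3K23ac regions (%) in the 90 windows of 250 kb of arm 3L, in order from the distal end to the centromere side (horizontal axis, % of the windows), for replicate 1, replicate 2 and the combined list. Coverage is high near the distal end, near 0 in the replicates between 5 and 5.5 Mb and highest in the last window, at 64.7% in replicate 1 and 56.5% in replicate 2.

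The densest window was 22.25 to 22.5 Mb, the last full window, where 60.6% ± 5.74 (SD, n = 2) of bases lay in regions of a replicate. It was followed by 1 to 1.25 Mb with 45.7% ± 3.74 and 0.5 to 0.75 Mb with 44.7% ± 6.39. The windows 12.5 to 12.75 Mb, with 41.3% ± 6.83, and 1.25 to 1.5 Mb, with 40.0% ± 4.60, completed the 5 highest. All 5 held 29 to 50 regions in each replicate. The combined list covered 65.3% to 82.9% of them.

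Dense windows adjoined each other at the distal end. From 0.25 to 1.75 Mb, 6 windows in a row were in the upper quartile of coverage in both replicates. In this block of 1500 kb, 203 regions of replicate 1 covered 41.7% and 184 regions of replicate 2 covered 36.6%, and combined regions covered 64.1%. The first 1.75 Mb make up 7.76% of the sequence but held 15.0% of the covered bases of replicate 1 and 18.2% of those of replicate 2. The limit at 1.75 Mb is where this run of dense windows ends, so an excess over 7.76% follows from the choice of interval. At the other end, the windows from 22 to 22.5 Mb were covered to 51.7% in replicate 1 and 44.6% in replicate 2. Another dense place, around 13 Mb, was broken up. The window 12.5 to 12.75 Mb had 46.2% and 36.5%, the next one, 12.75 to 13 Mb, only 7.21% and 2.26%, and the 500 kb from 13 to 13.5 Mb had 31.4% and 27.3%. The other windows in the upper quartile of both replicates stood alone, among them 6.25 to 6.5 Mb with 35.7% and 30.7%.

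From 13.5 to 20.5 Mb the arm was sparse on average, but not throughout. This interval held 31.1% of the sequence, 21.5% of the covered bases of replicate 1 and 20.2% of those of replicate 2. It starts where the dense windows from 13 to 13.5 Mb end, so its low share follows in part from the choice of interval. Within it, the window 16.25 to 16.5 Mb was covered to 25.8% and 14.1% and ranked 26 of 90 by mean coverage. The lowest part of the interval was 18 to 19 Mb, with 7.10% and 4.54% in the replicates and 23.6% in combined regions. This was the lowest of the 22 full windows of 1 Mb in each of the 3 lists. The highest was the first Mb, with 36.1% and 31.9%. The ratio of coverage in replicate 1 to that in replicate 2 ranged from 1.12 at 14 to 15 Mb to 1.93 at 17 to 18 Mb, with a median of 1.42 over the windows of 1 Mb. Replicate 1 covered more in every one of these 22 windows, and more so in some than in others.

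The replicates ranked the windows in nearly the same order, with a Spearman correlation of 0.925 over the 90 windows of 250 kb, which lie side by side on 1 arm. It was 0.813 over 450 windows of 50 kb. On 2L and 3R the correlation was 0.931 over 84 and 0.908 over 103 windows of 250 kb. The 9 windows with the highest coverage in replicate 1 were covered to between 30.7% and 56.5% in replicate 2, with a median of 36.7%. The remaining windows had a median of 10.2% and a maximum of 35.7% in replicate 2. In the other direction, the 9 highest windows of replicate 2 were covered to between 34.9% and 64.7% in replicate 1, and 8 windows were among the 9 highest of both. The 9 lowest windows of replicate 1 had at most 6.86% in replicate 2, with a median of 3.14%, and 5 windows were among the 9 lowest of both.

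**Figure D2:**
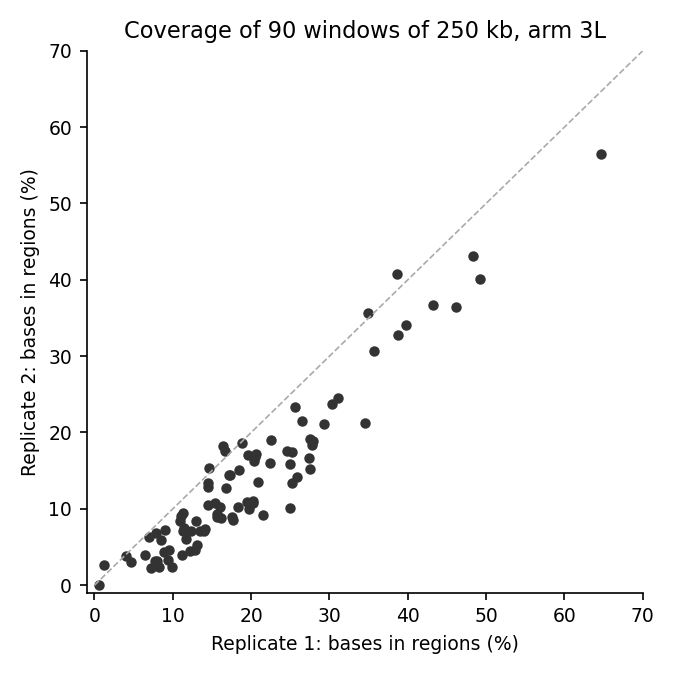
Share of bases in H3K23ac regions (%) in replicate 1 (horizontal axis) and replicate 2 (vertical axis), 1 point for each of the 90 windows of 250 kb on arm 3L, with a dashed line of equality. Most points lie below the line, with replicate 1 higher in 84 windows, and the order of the windows is shared, with a Spearman correlation of 0.925.

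High coverage came with more regions and, to a smaller degree, with wider ones. When windows were ordered by replicate 2, the upper quartile held 33.1 regions of replicate 1 per window and the lowest 11.4. The median widths of these regions were 1956 and 1681 bp, and 7.74% and 0.380% of them reached 5 kb. Ordered by replicate 1, the upper and the lowest quartile held 27.4 and 6.52 regions of replicate 2 per window, with median widths of 1929 and 1622 bp. Scores differed little between these windows. For replicate 1 the median was 0.66 in the upper and 0.65 in the lowest quartile, and for replicate 2 0.67 and 0.64. Neighbouring windows resembled each other over short distances. The Spearman correlation between adjacent windows of 100 kb was 0.44 for mean coverage, 0.20 for windows 2 steps apart and 0.14 for windows 4 steps apart.

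No window of 250 kb was empty in both replicates, but shorter intervals were. Without a region in any of the 3 lists there were 5 intervals of at least 50 kb, together 320 kb or 1.42% of the sequence. The longest was 5240323 to 5329459, of 89.1 kb. Next came 7269333 to 7330053, of 60.7 kb, and the distal end of the sequence up to base 59749. The remaining intervals were 10679853 to 10736637, of 56.8 kb, and 5118229 to 5171883, of 53.7 kb. On 2L there were 9 such intervals and on 3R 3, making up 2.75% and 0.673% of those arms.

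With the replicates alone, 33 intervals of at least 50 kb were free of regions, 11.0% of the sequence. The longest, 5222049 to 5464523, measured 242.5 kb and held 12 combined regions, which covered 7.66% of it. The second longest, 5031290 to 5182428, of 151.1 kb, lies just distal to it and held 7 combined regions. Both belong to the sparse interval from 5 to 5.5 Mb, in which replicate 1 covered 0.931% and replicate 2 covered 1.34%. On its proximal side this interval is followed by 5.75 to 6 Mb, where coverage was 30.3% in replicate 1 and 23.7% in replicate 2. The next 3 empty intervals lie in windows in the lower quartile of coverage in both replicates, at 18688814 to 18797784, 18482317 to 18581452 and 17111770 to 17207060. Sequence outside regions fell short of a threshold that is not stated, and whether reads can be placed in these intervals was not examined.

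Spacings were uneven, with many close neighbours and a few wide gaps. The median number of free bases between neighbours was 3654 in replicate 1 and 4930 in replicate 2, whereas the means were 8997 and 13384. Spacings under 2 kb made up 35.6% for replicate 1, 31.8% for replicate 2 and 57.2% for the combined list. The mean share over the replicates was 33.7% ± 2.70 on 3L, 31.8% ± 1.25 on 2L and 32.8% ± 0.242 on 3R (SD, n = 2). These differences were not tested either. The coefficient of variation of the spacings was 1.64 and 1.78 in the replicates and 1.60 in the combined list.

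**Figure D3:**
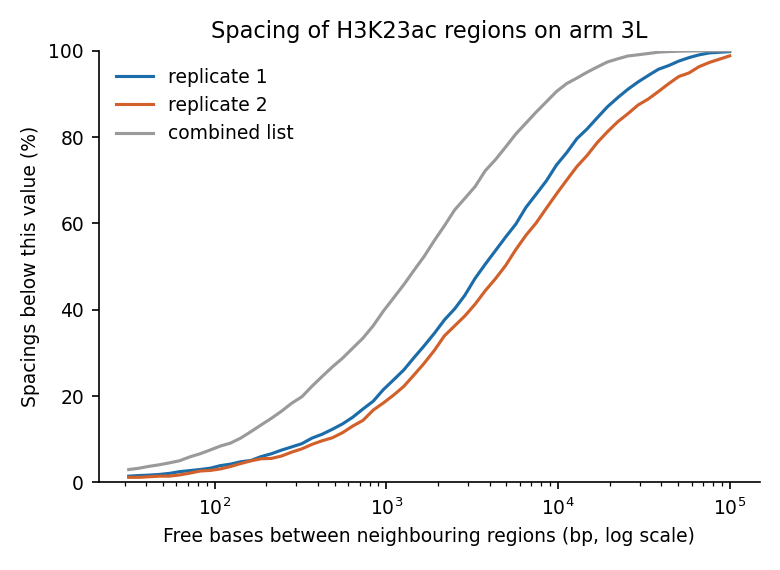
Cumulative share (%) of spacings between neighbouring H3K23ac regions on arm 3L below a given number of free bases (log scale), for replicate 1, replicate 2 and the combined list. The curve of the combined list lies above those of the replicates, with 57.2% of spacings under 2 kb against 35.6% in replicate 1 and 31.8% in replicate 2.

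When regions under 2 kb apart were chained, 44.4% of the regions of replicate 1 and 49.0% of those of replicate 2 stood alone, and 33 and 22 chains had 5 or more regions. The largest chain of replicate 1 had 26 regions from 22365401 to 22475457, over 110.1 kb, of which 86.6% was covered. Replicate 2 covered 74.8% of the same interval. The next chains of replicate 1 were 1430225 to 1488594 with 13 regions, 8998016 to 9041917 with 12, 1690405 to 1727301 with 9 and 10958923 to 10986854 with 8. Replicate 2 covered between 53.4% and 65.9% of these 4 intervals.

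In replicate 2 the largest chain, of 10 regions, ran from 781967 to 824729 and was covered to 86.8%, with 66.3% in replicate 1. It was followed by 22129186 to 22161207 and 22424813 to 22451779, with 8 regions each, and by 1431041 to 1458230 and 1685231 to 1700687, with 7 each. All 5 lie in the distal or the proximal dense block. In the combined list the largest chains were 7558052 to 7632154, with 21 regions, and 13045882 to 13105314 and 22129018 to 22239548, with 18 each. The intervals 22292086 to 22488732, with 17 regions over 196.6 kb, and 20900914 to 20986114, with 15, came next. Combined regions cover 85.1% of the interval from 7558052, but replicate 1 covers 48.2% and replicate 2 31.2% of it.

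The bases found in both replicates came to 1.99 Mb of the 5.65 Mb found in either, so that the Jaccard index, the shared part of all covered bases, was 0.352 on 3L, 0.339 on 2L and 0.350 on 3R. Of the regions of replicate 1 on 3L, 1055 had at least 1 base in common with replicate 2 (52.6%, 95% Wilson interval 50.4 to 54.8%), against 51.8% in the whole series. For replicate 2 it was 1048 regions (72.8%, interval 70.4 to 75.0%), against 72.7% in the whole series. Both shares are close to those of the whole series. These intervals cover counting error only. Sharing depended on width: in replicate 1 it was 32.7% in the narrowest and 81.6% in the widest quartile, and in replicate 2 57.5% and 92.5%. A wide region also meets the other list more easily by its size.

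Regions found in 1 replicate only lay at varied distances from regions of the other. The 392 regions of replicate 2 that shared no base with replicate 1 lay a median of 1903 bp from its nearest region, and 73.5% lay within 5 kb. For the 950 such regions of replicate 1 the median distance was 4001 bp, 54.2% lay within 5 kb, and 14.2% were 20 kb or more away. The list of replicate 1 was the denser, with 88.9 against 63.9 regions per Mb. Distances to a denser list tend to be shorter, and no comparison with random positions was made. Regions found in 1 replicate only were narrower than the shared ones, at 1608 against 2047 bp (medians) for replicate 1, and at 1546 against 1916 bp for replicate 2. The combined list met 98.8% of these regions of replicate 1 and 97.7% of those of replicate 2.

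Where regions did overlap, their edges and scores matched loosely. Among 973 pairs, the starts differed by a median of 425 bp and the ends by 453 bp. Scores had a Spearman correlation of 0.41 between the replicates, against 0.30 over 879 pairs on 2L and 0.32 over 1208 on 3R, and the differences between arms were not tested. Widths had a Spearman correlation of 0.43, and replicate 1 was the wider in 58.8% of the pairs.

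Stretches covered in both replicates numbered 1176, with a median length of 1533 bp. Of these, 101 reached 3 kb, 23 reached 5 kb and none reached 10 kb. In the lists as deposited, the 23 long stretches lay in a few places. Of these, 13 lay before 2 Mb, 5 beyond 22 Mb and 3 between 12 and 13 Mb. The last 2 lay at 2.40 and 11.97 Mb, and there were 0 between 13 and 22 Mb. Only 6 of the 1-Mb intervals of the arm held any, and 20 of the 23 lay within 250 kb of another. This places them mostly in the dense windows, to whose coverage they contribute. A stretch ends wherever either list splits a region. With regions under 1000 bp apart merged, 72 stretches reached 5 kb, and their positions were not examined. As deposited, the number of such stretches per Mb was 1.02 on 3L, 0.571 on 2L (12 stretches) and 0.618 on 3R (16 stretches), without a test. The order of the arms depended on the length chosen. Stretches of at least 3 kb numbered 101 on 3L, 71 on 2L and 117 on 3R, arms that differ in size. Those of at least 10 kb numbered 0, 3 and 0. The longest stretch measured 9258 bp on 3L, 13232 bp on 2L and 9959 bp on 3R.

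The longest stretch, 22389477 to 22398734, of 9258 bp, lay in a region of 9794 bp in replicate 1 and of 11566 bp in replicate 2, with scores of 0.73 and 0.80. The second, 22375773 to 22383770, of 7998 bp, is a whole region of replicate 1, with a score of 0.88. It lies inside the widest region of replicate 2, 22369346 to 22389086, of 19741 bp, with a score of 0.81. In the combined list both belong to 1 region of 59347 bp, 22341830 to 22401176, the widest of the arm. This region scored 0.69, and 10 regions of replicate 1 and 6 of replicate 2 lie in it, covering 82.2% and 90.7% of its length.

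The third stretch, 1759920 to 1767569, of 7650 bp, lay just beyond the proximal edge of the distal block. It is covered by a region of 12038 bp with a score of 1.05 in replicate 1 and by one of 7650 bp with a score of 0.82 in replicate 2. Its window of 250 kb ranked 53 of 90 by mean coverage, and 58.0 kb without a replicate region begin at 1793834, on its proximal side. The fifth, 11969195 to 11976269, of 7075 bp, had scores of 0.89 and 0.87 in the replicates.

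The fourth and the sixth, 12650346 to 12657451 of 7106 bp and 12548425 to 12555344 of 6920 bp, lay in the dense window from 12.5 to 12.75 Mb. The fourth had nearly the same edges in both replicates, with regions of 7394 and 7182 bp and a score of 0.86 in each. The remaining 4 of the 10 longest belong to the distal block. They were 770935 to 777800 (6866 bp), 1076212 to 1083069 (6858 bp), 1201598 to 1208379 (6782 bp) and 739396 to 746068 (6673 bp). Their scores lay between 0.66 and 0.90 in the replicates.

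**Figure D4:**
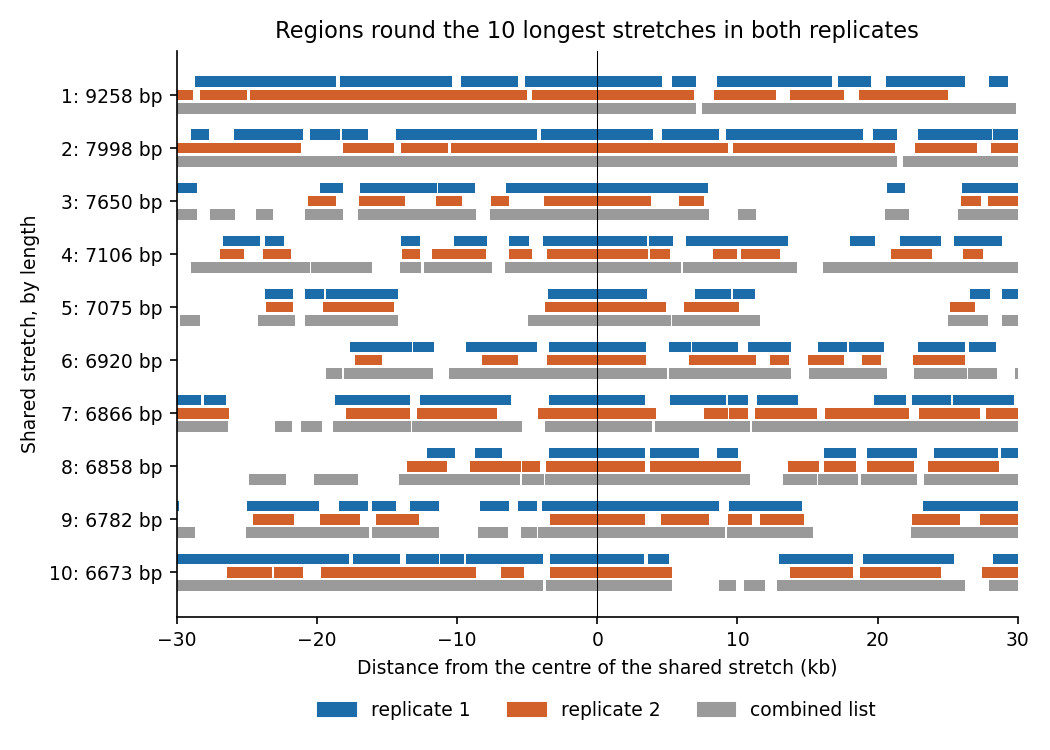
H3K23ac regions of replicate 1, replicate 2 and the combined list as bars within 30 kb of the centre of each of the 10 longest stretches covered in both replicates (horizontal axis, distance in kb), ordered by length from 9258 bp (top) to 6673 bp. The bars of the longest 2 run on through most of the 30 kb on either side. The third, the fifth and the eighth have wide sequence without replicate regions near them on at least 1 side.

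The widest regions of replicate 1 were 5849093 to 5862570 (13478 bp), 1228226 to 1241320 (13095 bp) and 712334 to 724999 (12666 bp). Replicate 2 covered 61.0%, 72.6% and 57.1% of them with 5, 4 and 3 separate regions. In replicate 2 the widest after the region of 19741 bp were 22389477 to 22401042 (11566 bp) and 723000 to 734111 (11112 bp), of which replicate 1 covered 93.9% and 91.5%. So the same sequence was reported as 1 wide region in one replicate and as several in the other. The next widest regions of the combined list were 1429818 to 1463564 (33747 bp) and 712220 to 738894 (26675 bp).

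Among combined regions that overlap both replicates, the highest score belonged to 11951902 to 11958542, of 6641 bp, at 0.99 in the combined list. The highest-scoring region of replicate 1 there had 1.35 and that of replicate 2 1.20, the highest score of replicate 2 on the arm. Next came 867030 to 870904 with a combined score of 0.94, and 1.10 and 0.90 in the replicates. The region 8471318 to 8475836, at 0.92, scored 1.25 in replicate 1 but 0.73 in replicate 2, which covered 44.0% of it. At 19526220 to 19530958, with a combined score of 0.89, the replicates scored 1.06 and 0.84 and covered 95.2% and 90.5%. This region lies between 13.5 and 20.5 Mb, where the arm was sparse on average. Its own window of 250 kb was not among the sparse ones. Regions took up 17.1% (replicate 1) and 14.4% (replicate 2) of that window, which ranked 40 of 90 by mean coverage.

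The others were 6783282 to 6786282 at 0.87, 12604386 to 12614500 at 0.84, 10974984 to 10978550 at 0.82, 1756098 to 1771724 at 0.81, 8997754 to 9011546 at 0.80 and 12455648 to 12459804 at 0.79. In 9 of these 10 regions replicate 1 scored higher than replicate 2, with 12455648 to 12459804 (both 0.89) as the exception. Over all overlapping pairs on the arm the median difference was 0.0078. Among all regions of 3L used here, the upper end of the scores was also higher in replicate 1. Its upper quartile was 0.734 against 0.717 in replicate 2, and its maximum 1.41 against 1.20. Of the 10, 1756098 to 1771724 and 12604386 to 12614500 hold stretches of at least 5 kb.

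Wider regions had higher scores. In replicate 1 the median score by width quartile, narrowest to widest, was 0.58, 0.58, 0.67 and 0.75. In replicate 2 it was 0.60, 0.61, 0.66 and 0.73. The Spearman correlation between width and score was 0.56 and 0.52 in the replicates and 0.42 in the combined list, across regions that share a library. The mean over the replicates was 0.541 ± 0.0231 on 3L, 0.525 ± 0.00722 on 2L and 0.526 ± 0.0113 on 3R (SD, n = 2). In the combined list the order broke at the narrow end, with 0.43 in the narrowest quartile and 0.39 in the next.

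**Figure D5:**
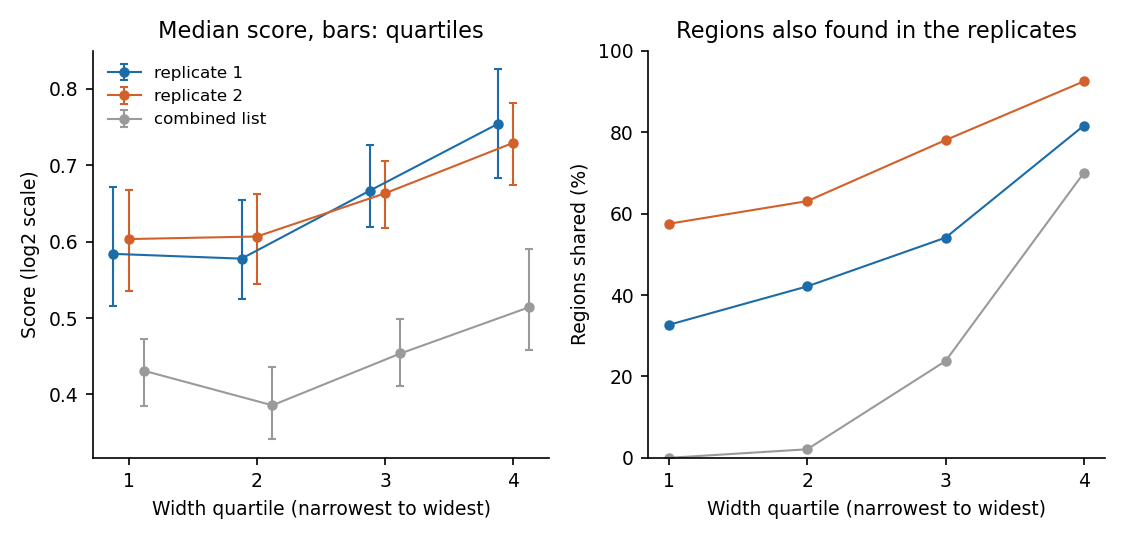
Left, median score (log2 scale; bars span the quartiles) and, right, share of regions (%) also found in the other replicate (for the combined list, in both replicates), by width quartile of H3K23ac regions on arm 3L. Both measures rise from the narrowest to the widest quartile in the replicates, the score with no step between the lower 2 quartiles; in the combined list the narrowest quartile scores above the next and holds 0% of regions found in both replicates.

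The highest scores of the combined list belonged to narrow regions that neither replicate list contained. All 8 highest-scoring regions were of this kind, led by 8013090 to 8014090 with 2.90, 19201534 to 19202542 with 2.40 and 11606108 to 11607112 with 1.96, which are 1001, 1009 and 1005 bp wide. These 3 were picked for their scores after these were seen. Of the 20 highest, 13 were in neither replicate, with a median width of 1009 bp, and 6 were in both, with a median of 4629 bp. Neither replicate list held a region under 1301 bp, whereas the combined list went down to 1001 bp. Of the 374 combined regions narrower than 1100 bp, 355 overlapped neither replicate.

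Of all combined regions on 3L, 868 (24.0%, 95% Wilson interval 22.6 to 25.4%) overlapped both replicates, against 24.4% in the whole series. A further 1110 (30.7%) overlapped 1 replicate, 805 of them replicate 1 and 305 replicate 2, and 1641 (45.3%) overlapped neither. These shares were close to those of the other arms. On 2L 30.6% overlapped 1 replicate and 45.1% neither, and on 3R 31.6% and 43.5%. Median widths in these classes on 3L were 3982, 1934 and 1303 bp and median scores 0.53, 0.43 and 0.42. The combined list held 97.8% of the bases found in either replicate, and covered 1.64 times as many. The bases it added had a narrower range than those of the replicates, between 7.37% and 27.7% of a window of 250 kb, with a median of 16.0%. Bases can be added only outside replicate regions, which by construction limits their share of dense windows. Across the 90 windows the added share had a Spearman correlation of 0.31 with the mean coverage of the replicates. In the sparse window 5.25 to 5.5 Mb, with 0.609% in replicate 1 and 0% in replicate 2, the combined list covered 8.19%. The added share there was 7.58%, near the low end of its range.

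By position, median scores were somewhat higher at both ends of the analysed sequence. Median widths were higher at the distal end in both replicates, and at the proximal end mainly in replicate 1. In replicate 1 the median score was 0.69 before 2 Mb (238 regions), 0.64 between 2 and 22 Mb (1671 regions) and 0.67 beyond (96 regions). In replicate 2 these medians were 0.69, 0.64 and 0.67 as well. Median widths of replicate 1 were 2209, 1764 and 2165 bp, and those of replicate 2 2035, 1720 and 1763 bp. The proximal end was not uniform. In the window 22 to 22.25 Mb the medians of replicate 2 were 0.63 and 1539.5 bp, below those between 2 and 22 Mb. Those of replicate 1 in this window were 0.66 and 1991.5 bp, above them. The Spearman correlation between position and score over all regions was -0.13 in replicate 1 and -0.12 in replicate 2. The score of a region was weakly related to the coverage of the 250 kb around it, itself left out, with a Spearman correlation of 0.11 in replicate 1 and 0.16 in replicate 2. Among the regions up to the median width of their list, a split chosen after seeing the data, the mean correlation over the replicates was -0.029. The wider regions alone were not examined, and a part of width in this relation was not tested.

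At the limit of the chosen sequence, the last region inside was 22534441 to 22536099 in replicate 1, of 1659 bp with a score of 0.62. In replicate 2 it was 22531893 to 22534173, of 2281 bp with a score of 0.79. The first region left out spans the limit in both lists, with 3975 bp and a score of 0.69 in replicate 1 and 3463 bp and a score of 0.76 in replicate 2.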

How the data were processed

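Chromatin of whole embryos was crosslinked with formaldehyde and immunoprecipitated, per the labels' protocols. The deposited lists give regions of significant enrichment on FlyBase release 5, per the file headers. Per the submitters' processing notes, Bowtie 0.12.7 was among the tools. Not given in the sources used here are its role, the caller, the threshold and how the combined list was made. The deposited score is on a log2 scale, found from the values: 98.4% to 100% of score differences from 1 region of a list were the log2 of a whole-number ratio (denominators up to 20000, relative tolerance 1e-12), against at most 0.418% for natural or decimal logarithms. What it is relative to is not stated, so read depth could not be derived.

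Coverage, spacings, overlaps and windows were computed with Python 3.11.15, numpy 2.4.6, pandas 2.3.3 and scipy 1.17.1, and drawn with matplotlib 3.10.9. Interval functions were tested on 50 simulated pairs of lists, with 0 failed checks. Arms 2L and 3R were also taken without the 2 Mb at their centromere-side end. A shared region has at least 1 base in the other list. Pairs were made one to one by largest overlap. A chain joins regions with fewer than 2 kb between them. Spreads are SDs over 2 replicates, and intervals are 95% Wilson intervals.

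Named regions follow a fixed rule: the 10 highest-scoring combined regions in both replicates, the 10 longest shared stretches, the 5 densest windows, the 5 longest empty intervals, the 3 widest regions and the 5 largest chains of each list, and those at the limit. The members and measures were chosen with earlier results of these data known. The gene table is of release 6, so genes and sequences are not given. Columns without a sample: 0.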

Additional observations from a re-analysis of the deposited data

How the results depend on the processing

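Of 45 alternative values for the 14 results, leaving out a replicate aside, 12 stayed within the replicate SD, the Wilson interval or, for counts, 1.5 times, 32 moved and 1 reversed; the Jaccard index and the correlations between the replicates have no such error, so that any change in them counts as a move. The setting without the densest window and the setting by median width were chosen after seeing the data. With 2 replicates, leaving out either stays within the SD by construction: coverage of 3L was 14.2% to 19.7% and its ratio to the mean of 2L and 3R 0.981 to 0.988.

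The combined list gave 41.1% coverage, 160.5 regions per Mb, 57.2% of spacings under 2 kb and a Spearman correlation of width and score of 0.42. With regions above each list's median score only, coverage was 9.53%, density 34.5 per Mb, the Jaccard index 0.269, the shared regions 42.2% of replicate 1 and 55.0% of replicate 2, the Spearman correlation between window coverages 0.786, empty windows 1, and the ratio to 2L and 3R 1.02, against 0.984 as deposited and 0.946 for whole arm sequences, so that the side of 1 on which 3L lies depended on the setting. With equal numbers of regions the Jaccard index was 0.320, the shares 56.4% and 55.1%, this correlation 0.857 and empty windows 1. With regions under 1000 bp apart merged the Jaccard index was 0.363, spacings under 2 kb 16.7%, and shared stretches of at least 5 kb numbered 72 and not 23. By length there were 101 of at least 3 kb and 0 of at least 10 kb. Without the densest window 19 remained. Of the 10 longest stretches, 9 kept their length among regions above the median score and 10 at equal numbers of regions, and after merging the longest was 35642 bp.

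With at least 50% of the region covered, 42.9% of replicate 1, 61.8% of replicate 2 and, for both replicates, 14.2% of the combined list were shared, which follows from the stricter demand. Windows of 100 kb gave a Spearman correlation of 0.855 and 1 empty window, and shifted windows a Spearman correlation of 0.870. Spacings under 1 kb made up 20.4% and those under 5 kb 53.8%. The Spearman correlation of scores was 0.50 with 50% reciprocal overlap. The relation of local coverage and score, 0.13 on average, reversed in sign only, to -0.029 among regions up to the median width, which is practically no correlation. Otherwise the cause of these moves was not tested, and depth is unknown. No paired analysis was possible because the input samples have no region list here.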

Other observations

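Beyond the limit at 22543557, dense coverage went on for a short way and then ended. In the window 22.5 to 22.75 Mb replicate 1 covered 33.9% and replicate 2 22.8%, and 22.75 to 23 Mb to 30.3% and 23.8%. From 23 to 23.25 Mb both replicates had 0%, and the combined list 0.829%. Read placement in that sequence was not examined.

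Some of the highest-scoring replicate regions were found in that replicate only, and were picked for their scores. In replicate 1 the highest score, 1.41, belonged to 11270537 to 11271883, of 1347 bp, with no region in replicate 2 and a combined score of 0.61. Likewise 4849281 to 4851627 scored 1.30 in replicate 1 and 0.58 in the combined list, without a region in replicate 2. In replicate 2, 19708334 to 19710381 and 2455758 to 2457251 both scored 0.93, without a region in replicate 1, and 0.54 and 0.47 in the combined list.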
